A study of Mus musculus with 5 samples.

Results

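Transcripts of 10 genes of bone morphogenetic protein (BMP) signalling were measured in single cells of mouse liver, of 31053 genes in the tables. They were the ligand genes Gdf2, Bmp10, Bmp5, Bmp2 and Gdf10, the receptor genes Acvrl1 and Bambi, and the target genes Id1, Id2 and Id3. The members were listed by name, and all 10 were found in the tables of all 5 libraries. The livers came from male Rosa26mTmG;Col1a1-Cre mice on the C57BL/6J background. In these mice Cre driven by the Col1a1 promoter switches a cell and its progeny to GFP for good, so that the Col1a1+ gate holds cells with present or past promoter activity. DEN+WAD mice received the liver carcinogen diethyl nitrosamine (DEN) at 10 mg/kg at 2 weeks of age and, from 6 weeks, 5 months of a liquid Western alcohol diet (WAD) with 3.5% ethanol by volume. Control mice received saline and then chow. Liver cells other than hepatocytes were freed by pronase and collagenase perfusion and sorted by vitamin A autofluorescence and GFP. The gates VitA+Col1a1+ and VitA-Col1a1+ gave 1 library each from DEN+WAD mice and from chow mice, and the last library, labelled VitA-Col1a1-, came from DEN+WAD mice only. The number of mice behind each library was not stated, and carcinogen and diet, always given together, cannot be told apart.

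Each group was thus 1 library with no replicate, and no test between groups could be made. Levels are UMIs of a gene per 1000000 UMIs (CPM), and their exact Poisson 95% intervals, like those of the ratios, cover counting error only. A gene was said to pass 2-fold when its ratio of CPM was at least 2-fold and its mean over the libraries compared was at least 5 CPM. The libraries held between 259 and 10481 cells and between 6145748 and 149936344 UMIs, with median UMIs per cell of 9106 to 24077 and median mitochondrial shares of 2.70% to 3.61%. Pairs of libraries shared between 0 and 21 cell barcodes, at most 0.749% of the smaller library. All 5 libraries carry the label hepatic stellate cell, and all 9 markers of a stellate cell list were found at 5 CPM or more in each. The library labelled VitA-Col1a1- went against its label: Col1a1 was at 1062 CPM there, against 304 and 958 CPM in the VitA+Col1a1+ and VitA-Col1a1+ libraries of DEN+WAD mice and 99.4 and 1834 CPM in those of chow mice. All 8 markers of the macrophage list passed 5 CPM in that library, and none did in the other 4.

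BMP ligands bind pairs of type I and type II receptors on the cell surface, and the activated type I receptor phosphorylates Smad1, Smad5 and Smad9, which enter the nucleus with Smad4 and switch on genes such as Id1, Id2 and Id3. Gdf2 encodes BMP9, a circulating factor made largely by hepatic stellate cells, the vitamin A storing pericytes of the liver. BMP9 and its relative BMP10 bind with high affinity to the type I receptor ALK1, encoded by Acvrl1 and best known from endothelial cells. Bmp2 of liver sinusoidal endothelial cells acts on hepatocytes to raise hepcidin. Bambi encodes a pseudoreceptor that lacks a kinase, and the Id proteins are partners of basic helix-loop-helix factors that keep these off DNA.

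In the GENCODE M21 annotation of GRCm38, Gdf10 (chr14:33923587-33937983, plus strand) and Gdf2 (chr14:33941039-33947198, plus strand) were neighbours in the same orientation, with a gap of 3055 bases between them. Bmp10 was at chr6:87428994-87437677, Bmp5 at chr9:75775364-75900310, Bmp2 at chr2:133552159-133562885, Acvrl1 at chr15:101128522-101145336, Id1 at chr2:152736251-152737410 and Id3 at chr4:136143497-136145755, all on the plus strand, and Id2 at chr12:25093799-25097140 on the minus strand. RefSeq windows of the 250 bases before the start (GRCm38.p6) were matched for 6 of the 10 members, Gdf2, Bmp10, Bmp5, Gdf10, Id2 and Id3. Those of Gdf2, Bmp10 and Gdf10 are shown because, among the ligand genes, Gdf2 and Bmp10 had the lowest and Gdf10 the highest ratio of VitA- to VitA+ cells in both diets. They lie at chr14:33940789-33941038, chr6:87428744-87428993 and chr14:33923337-33923586, are given 5′ to 3′ on the plus strand, and carry in capitals any match, on either strand, to the GC-rich elements GGCGCC and, with another base, GGAGCC, to the Smad4 element CAGAC, or to a composite of GGCGCC with GTCT after 5 bases, letters of elements that Smad proteins bind.
Gdf2: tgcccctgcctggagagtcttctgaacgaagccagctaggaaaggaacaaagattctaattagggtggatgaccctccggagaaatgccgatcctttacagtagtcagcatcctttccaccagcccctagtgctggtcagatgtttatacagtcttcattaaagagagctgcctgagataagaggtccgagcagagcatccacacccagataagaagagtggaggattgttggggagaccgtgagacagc
Bmp10: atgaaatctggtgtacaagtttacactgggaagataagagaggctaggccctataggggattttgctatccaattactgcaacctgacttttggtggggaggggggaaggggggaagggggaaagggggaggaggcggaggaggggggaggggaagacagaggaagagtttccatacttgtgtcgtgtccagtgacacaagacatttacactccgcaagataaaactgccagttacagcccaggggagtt
Gdf10: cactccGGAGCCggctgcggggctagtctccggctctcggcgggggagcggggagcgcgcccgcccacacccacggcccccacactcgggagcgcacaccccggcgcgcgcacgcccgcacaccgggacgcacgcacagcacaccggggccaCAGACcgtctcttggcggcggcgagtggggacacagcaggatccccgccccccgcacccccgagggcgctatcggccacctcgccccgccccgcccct
The Gdf10 window held GGAGCC, 244 bases before the start, and CAGAC, 98 bases before it, and its GC content of 78.8% compared with 50.4% for Gdf2, 52.0% for Bmp10 and a median of 52.4% over all 32851 windows. None of the 4 motifs was in the Gdf2 and Bmp10 windows, which says only that these letters are not in these 250 bases. Id3 held GGAGCC and CAGAC, Id2 held GGCGCC and GGAGCC, and Bmp5 held CAGAC. Of all windows, 42.2% held CAGAC, 26.0% GGAGCC, 9.59% GGCGCC and 0.07% the composite motif, which no member held.

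The ligand genes of the ALK1 receptor were highest in the VitA+ gate. Gdf2 was at 709 CPM in VitA+Col1a1+ and 40.8 CPM in VitA-Col1a1+ cells of chow mice, at 656 and 285 CPM in the same gates of DEN+WAD mice, and at 95 CPM in the library labelled VitA-Col1a1-. The lowest value was thus that of the VitA-Col1a1+ chow library, and both VitA+ libraries stood above the other 3. Gdf2 was 17.4-fold lower in VitA- than in VitA+ cells on chow (log2 ratio -4.12, interval -4.24 to -4.0) and 2.31-fold lower after DEN+WAD (-1.21, -1.23 to -1.18). The log2 ratio on chow minus that after DEN+WAD was -2.91 (-3.04 to -2.79). In sums over cells, fewer cells of a type and less RNA per cell cannot be told apart.

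Bmp10 followed the same order at lower counts. It was at 167 CPM in VitA+Col1a1+ and 4.67 CPM in VitA-Col1a1+ cells of chow mice, at 117 and 37.1 CPM in those of DEN+WAD mice, and at 25.3 CPM in the library labelled VitA-Col1a1-. The gate ratio was a 35.8-fold lower level in VitA- cells on chow (log2 -5.16, -5.53 to -4.81, from 70 UMIs in the VitA- library) and a 3.15-fold lower one after DEN+WAD (-1.65, -1.73 to -1.58). The UMIs of Gdf2 per UMI of Bmp10, which are counts at the 3′ end and are compared only between libraries, were 4.25 and 5.62 in the VitA+ libraries of chow and DEN+WAD mice, 8.74 (6.82 to 11.4) and 7.68 in the VitA- libraries, and 3.75 in the one labelled VitA-Col1a1-. Both VitA- libraries of the Col1a1+ gate thus held more Gdf2 for each Bmp10 UMI than the matching VitA+ libraries.

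Bmp5, a ligand of the BMP subgroup that signals mainly through other type I receptors than ALK1, was at 645 CPM in VitA+Col1a1+ and 127 CPM in VitA-Col1a1+ cells on chow, and at 492 and 246 CPM after DEN+WAD. It was at 128 CPM in the library labelled VitA-Col1a1-, close to the VitA-Col1a1+ chow library. The gate ratio was 5.08-fold lower in VitA- cells on chow, and after DEN+WAD its log2 value of -1.0 lay just short of 2-fold. Bmp2 did not follow this order. Its CPM was 322 in the VitA+ and 199 in the VitA- gate of chow mice, 242 and 389 in the gates of DEN+WAD mice, and 359 among the cells labelled VitA-Col1a1-. The ratio of VitA- to VitA+ cells had a log2 value of -0.69 on chow and 0.69 after DEN+WAD, past 2-fold in neither. Pecam1, the endothelial marker that defined a class of Bmp2-rich cells described further on, was at 17.9 and 26.9 CPM in the VitA+ and VitA- libraries of chow mice, 8.42 and 92.4 CPM in those of DEN+WAD mice, and 154 CPM in the library labelled VitA-Col1a1-.

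Gdf10 and Acvrl1 ran the other way. Gdf10, which encodes BMP3b, a divergent family member known mainly for opposing other BMPs, was at 149 CPM in VitA+Col1a1+ and 439.9 CPM in VitA-Col1a1+ cells on chow, 51.6 and 203 CPM after DEN+WAD, and 30.6 CPM in the library labelled VitA-Col1a1-. In both diets the VitA- library was higher, by 2.95-fold on chow (log2 1.56, 1.46 to 1.66) and 3.94-fold after DEN+WAD (1.98, 1.94 to 2.02). Acvrl1 was close to absent from VitA+ cells, at 1.46 CPM (9 UMIs) on chow and 1.21 CPM (181 UMIs) after DEN+WAD, and these intervals overlapped. In VitA-Col1a1+ cells Acvrl1 was at 70.7 CPM on chow and 33.8 CPM after DEN+WAD, with 43.4 CPM in the library labelled VitA-Col1a1-. The gate ratio of Acvrl1 was 48.3-fold (25.3 to 106) on chow and 28.0-fold (24.0 to 32.8) after DEN+WAD. Bambi, the pseudoreceptor gene, was between 180.3 and 317 CPM in the 4 Col1a1+ libraries, with log2 gate ratios of -0.71 on chow and -0.42 after DEN+WAD, and was lowest in the library labelled VitA-Col1a1- at 71.4 CPM.

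**Figure D1:**
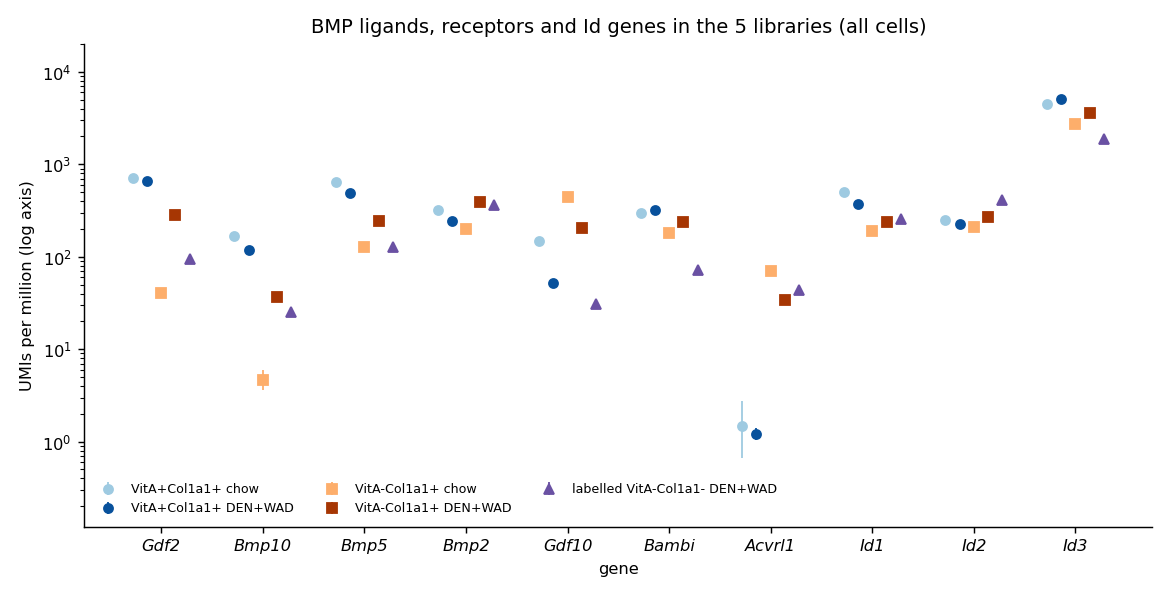
Level of each of the 10 members in all cells of each library, in CPM on a log axis; points are libraries, circles VitA+Col1a1+, squares VitA-Col1a1+ and triangles the library labelled VitA-Col1a1-, and bars are exact Poisson 95% intervals of counting error, often smaller than the point. The VitA+ libraries stand highest for Gdf2 and Bmp10 and lowest for Acvrl1, where they are at 1.46 and 1.21 CPM, while Id3 is the member with the most UMIs in every library, from 1871 to 5044 CPM.

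The Id genes, the transcriptional readout of BMP receptors in many cells, were found in every library at levels far above the counting floor. Id1 was at 496 CPM in VitA+Col1a1+ and 191 CPM in VitA-Col1a1+ cells on chow, 369.7 and 235 CPM after DEN+WAD, and 257 CPM in the library labelled VitA-Col1a1-. Id1 was 2.60-fold lower in VitA- cells on chow (log2 -1.38, -1.45 to -1.31) and short of 2-fold after DEN+WAD (-0.65). Id3 was at 4456 and 2737 CPM in the VitA+ and VitA- cells on chow, 5044 and 3603 CPM after DEN+WAD, and 1871 CPM in the library labelled VitA-Col1a1-. Its log2 gate ratios were -0.70 and -0.49. Id2 varied least between the Col1a1+ libraries, from 210.0 to 267 CPM, and was highest in the library labelled VitA-Col1a1- at 414 CPM. Its log2 gate ratio was -0.24 on chow and 0.25 after DEN+WAD.

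Genes that respond to tissue dissociation moved with the gates as well. Hspa1a was at 5226 and 494 CPM in VitA+ and VitA- cells on chow and at 4214 and 2020 CPM after DEN+WAD, and Hspa1b at 5481 and 499.8 CPM and at 3528 and 2027 CPM. Jun (6670 and 2724 CPM on chow, 5885 and 4205 CPM after DEN+WAD), Fos (4117 and 2973 CPM, 4361 and 3800 CPM), Junb (3526 and 2797 CPM, 4026 and 3584 CPM) and Atf3 (963 and 586 CPM, 919 and 857 CPM) were also higher in the VitA+ gate. Egr1 (1294 and 1404 CPM on chow, 1134 and 925 CPM after DEN+WAD) was higher there after DEN+WAD and not on chow. Their part in the Id1 and Id3 differences was not tested.

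Over the 10 members, 2 were past 2-fold higher in VitA- cells on chow (Gdf10 and Acvrl1), where 10.5% of all genes tested were, and 4 were past 2-fold lower (Gdf2, Bmp10, Bmp5 and Id1), where 5.37% of genes were. After DEN+WAD the same 2 were higher, against 8.64% of genes, and 2 were lower (Gdf2 and Bmp10), against 1.65%. The members were chosen with earlier results of these data known, so that none of these counts is read against the share of all genes. Scaling the libraries by trimmed means of M values (TMM) in place of total UMIs moves every log2 ratio of a contrast by 1 amount, -0.09 for the gate on chow, -0.20 for the gate after DEN+WAD, 0.19 for the diet in VitA+ cells and 0.08 for the diet in VitA- cells. With it Bmp5 also passed 2-fold between the gates after DEN+WAD.

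To hold the type of cell closer to constant, the gates were compared in Lrat-positive cells alone, those with at least 2 UMIs of the stellate cell gene Lrat and none of Pecam1 or of the macrophage gene C1qa. They numbered 233 and 398 in the VitA+ and VitA- libraries of chow mice, 9965 and 1580 in those of DEN+WAD mice, and 2716 in the one labelled VitA-Col1a1-. In these cells Gdf2 was at 746 and 62.6 CPM on chow and at 668 and 438 CPM after DEN+WAD, with 197 CPM in the library labelled VitA-Col1a1-. The log2 gate ratio of Gdf2 was -3.57 (-3.70 to -3.45) on chow, an 11.9-fold difference, and -0.61 (-0.64 to -0.58) after DEN+WAD, no longer past 2-fold. Bmp10 was at 174 and 7.53 CPM on chow and at 119 and 57.9 CPM after DEN+WAD, ratios of -4.53 and -1.04. Bmp2, which differed in opposite directions over all cells, was lower in the VitA- gate of both diets among Lrat-positive cells, at 218 and 75.6 CPM on chow (-1.53) and 217 and 147 CPM after DEN+WAD (-0.56).

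Gdf10 and Acvrl1 kept their direction in Lrat-positive cells. Gdf10 was at 155 and 480.3 CPM on chow (log2 1.63) and at 52.0 and 172 CPM after DEN+WAD (1.73), and these log2 ratios differed by -0.10 (-0.21 to 0.02). No Acvrl1 UMI was found in the 233 Lrat-positive VitA+ cells of chow mice, against 628 UMIs in the 398 VitA- cells (67.6 CPM), so that the VitA- level was at least 126-fold higher with 3 UMIs as the floor for a count of 0 (the exact interval starts at 102). After DEN+WAD Acvrl1 was at 0.538 and 17.6 CPM, a 32.7-fold difference. Id1 was at 479.8 and 198 CPM on chow (-1.28) and 368 and 201 CPM after DEN+WAD (-0.87). Among genes tested in Lrat-positive cells, 10.6% were past 2-fold higher and 5.69% past 2-fold lower in the VitA- gate on chow, and 4.39% and 0.888% after DEN+WAD.

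The Lrat-positive cells of the gates were not alike in other markers. The summed level of the 9 stellate markers was 24133 CPM in VitA+ and 4951 CPM in VitA- cells of chow mice and 24026 and 13891 CPM in those of DEN+WAD mice. The summed level of a list of 7 portal fibroblast markers (Thy1, Fbln2, Dpt, Mfap4, Entpd2, Pi16 and Clec3b) ran opposite, at 32.3 and 3341 CPM on chow and 76.2 and 816 CPM after DEN+WAD, with 3 and 6, and 4 and 6, of the 7 at 5 CPM or more. Fbln2 and Pi16 were at 0 in the VitA+ chow cells and Pi16 in the VitA- chow cells. In the library labelled VitA-Col1a1- the sums were 9059 and 787 CPM. A list of 5 smooth muscle markers (Myh11, Cnn1, Actg2, Acta2 and Tagln) moved the same way as the portal fibroblast list, at 456 and 3451 CPM on chow, where Cnn1 and Actg2 were at 0 in the VitA+ cells, 823 and 2339 CPM after DEN+WAD, and 4822 CPM in the last library. Of its genes 3 and 5 were at 5 CPM or more on chow and 3 and 4 after DEN+WAD, and its part in the member values was not tested. Because the portal fibroblast sums moved with the gate ratios, the Lrat-positive cells were divided, after their values were seen, into those with under 5 UMIs summed over the portal fibroblast list and those with 5 or more.

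Under 5 such UMIs were found in 97.0% of Lrat-positive VitA+ cells and 11.3% of VitA- cells of chow mice (226 and 45 cells), in 95.2% and 57.8% of those of DEN+WAD mice (9486 and 913 cells), and in 53.5% of those labelled VitA-Col1a1-. The cut was made on counts that were not thinned. Median UMIs of the cells under 5 were 24527 and 20089 in VitA+ and VitA- chow cells and 13190 and 15531 after DEN+WAD. These shares, and the diet ratios within this range, are therefore not adjusted for depth. Within this range Gdf2 was at 749 and 323 CPM in the VitA+ and VitA- cells of chow mice and 687 and 568 CPM in those of DEN+WAD mice. The log2 gate ratio of Gdf2 was then -1.21 (-1.39 to -1.03) on chow and -0.27 after DEN+WAD, a smaller difference than over all Lrat-positive cells in both diets. Bmp10 was at 176 and 67.8 CPM on chow (-1.38, -1.79 to -0.99) and 124 and 90.5 CPM after DEN+WAD (-0.45). Bmp5 was at 667 and 401 CPM on chow (-0.73) and 509.5 and 438 CPM after DEN+WAD (-0.22). The VitA+ and VitA- cells of this range still differed in other genes. The stellate marker Reln was at 1982 and 862 CPM on chow and 1208 and 999.6 CPM after DEN+WAD. On chow Lrat was at 2015 and 1373 CPM, Col1a1 at 95.7 and 625 CPM and Hspa1a at 5236 and 2287 CPM. The part of these in the member values was not tested.

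Gdf10 and Id1 changed direction on chow within this range. Gdf10 was at 153 and 112 CPM in VitA+ and VitA- cells of chow mice, a log2 ratio of -0.46 (-0.78 to -0.15) from 94 UMIs in 45 VitA- cells, while it remained higher in VitA- cells after DEN+WAD at 49.0 and 123 CPM, a 2.51-fold difference. Id1 was at 489 and 543 CPM on chow (0.15, 0.00 to 0.29) and at 382 and 231 CPM after DEN+WAD (-0.73), and Id3 at 4568 and 4236 CPM (-0.11) and 5204 and 5211 CPM (0.00). Acvrl1 still differed on chow, with 22 UMIs (26.2 CPM) in VitA- and none in VitA+ cells, at least 47.5-fold (the exact interval starts at 35.5). After DEN+WAD Acvrl1 was at 0.260 and 6.05 CPM, from 35 and 87 UMIs, a 23.3-fold difference (15.6 to 35.5). Its mean was under the minimum of 5 CPM there, so that it did not count as past 2-fold. On chow 7.23% of genes were past 2-fold higher and 4.54% past 2-fold lower in this range, and after DEN+WAD 2.04% and 0.276%.

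**Figure D2:**
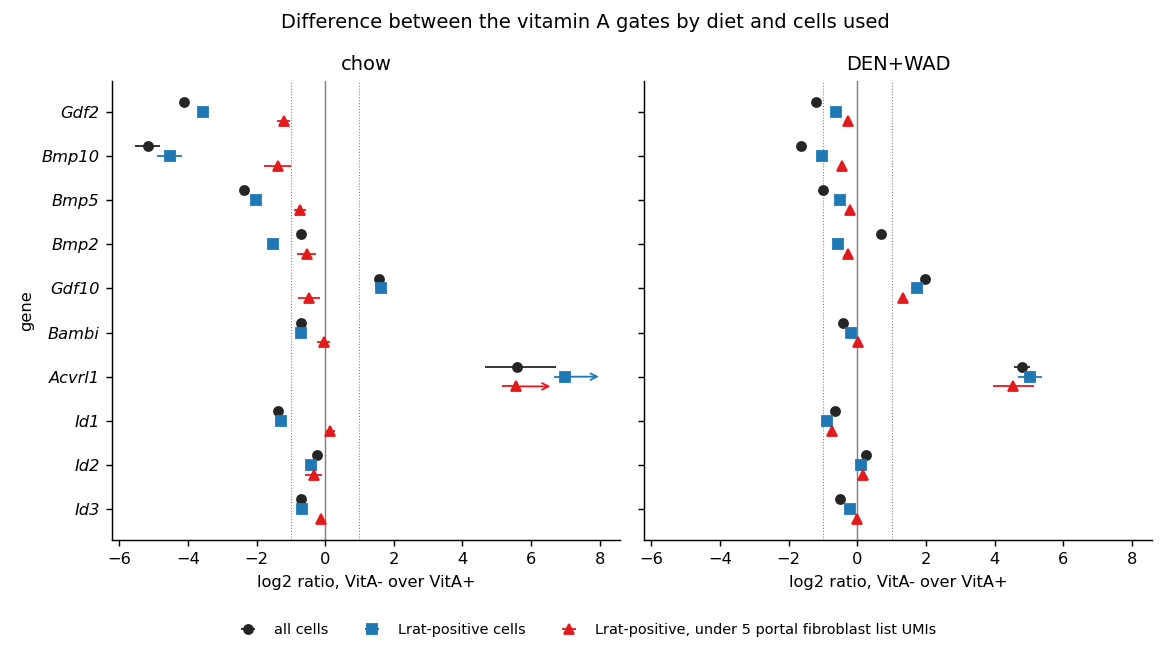
Log2 ratio of the level in VitA- over VitA+ cells for the 10 members on chow and after DEN+WAD, over all cells (circles), Lrat-positive cells (squares) and Lrat-positive cells with under 5 UMIs of the portal fibroblast list (triangles); bars are 95% intervals of counting error, arrows mark lower bounds against a count of 0 and dotted lines 2-fold. On chow Gdf2 goes from -4.12 to -3.57 to -1.21 and Gdf10 from 1.56 to 1.63 to -0.46, while Acvrl1 stays to the right in both diets.

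In the Lrat-positive cells with 5 or more such UMIs, Gdf2 was at 36.7 CPM in VitA- chow cells, 430.5 and 305 CPM in VitA+ and VitA- cells of DEN+WAD mice and 147 CPM in the library labelled VitA-Col1a1-, each below the value under 5. Gdf10 was higher than under 5 in all of these, at 517, 92.3, 223 and 72.5 CPM, and so was Acvrl1, at 71.7, 4.19, 29.3 and 28.8 CPM. Only 7 such cells were found in the VitA+ chow library. Cells with none of Lrat, Pecam1 and C1qa and at least 2 Col1a1 UMIs were counted apart, 128 in the VitA- library of chow mice, 306 in that of DEN+WAD mice and 297 in the one labelled VitA-Col1a1-. In these Lrat-negative cells Gdf2 was at 4.66, 21.7 and 36.0 CPM and Bmp5 at 57.7, 87.5 and 99.7 CPM, while Gdf10 was at 384, 474 and 64.4 CPM and Acvrl1 at 74.2, 95.2 and 52.8 CPM. The smooth muscle list summed to 7354, 3511 and 4946 CPM in them. Gdf2 was thus lower in them than in the Lrat-positive cells of the same library in all 3 libraries, and Acvrl1 higher, although its intervals overlapped on chow.

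The diet was compared within each gate, in libraries that also gave the gate ratios above. In VitA+Col1a1+ cells Gdf10 alone was past 2-fold, 2.88-fold lower after DEN+WAD at 51.6 against 149 CPM (log2 -1.53), where 3.11% of genes were past 2-fold lower and 0.970% past 2-fold higher. The other members had log2 ratios between -0.52 for Bmp10 and 0.18 for Id3. Acvrl1, under the minimum of 5 CPM in both libraries, had -0.28 with an interval of -1.24 to 0.87. Gdf2, at -0.11, was at 0.08 with TMM scaling, and Id2 went from -0.14 to 0.05. In VitA-Col1a1+ cells, Gdf2 was 6.98-fold higher after DEN+WAD (2.80, 2.69 to 2.92) and Bmp10 7.94-fold higher (2.99), where 4.39% of genes were past 2-fold higher. Gdf10 was 2.16-fold lower (-1.11) and Acvrl1 2.09-fold lower (-1.07), where 4.94% were past 2-fold lower. Bmp5 and Bmp2, each at 0.96, lay just short of 2-fold. With TMM scaling these passed 2-fold and Acvrl1 no longer did.

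Among Lrat-positive VitA- cells the diet ratios were 2.80 on the log2 scale for Gdf2, 2.94 for Bmp10, 1.08 for Bmp5, -1.48 for Gdf10, -1.94 for Acvrl1 and 0.02 for Id1. Of the genes tested in these cells 3.04% were past 2-fold higher and 7.11% past 2-fold lower. Under 5 UMIs of the portal fibroblast list, Gdf2 was at 0.81, Bmp10 at 0.42, Bmp5 at 0.13, Gdf10 at 0.14, Acvrl1 at -2.11 and Id1 at -1.24, with 3.56% and 7.23% of genes past 2-fold. In that range Acvrl1 and Id1 were the members that differed most between the diets, both lower after DEN+WAD. The comparison is of 913 cells after DEN+WAD with 45 cells on chow. Acvrl1 had 87 and 22 UMIs there (-2.80 to -1.37) and Id1 3316 and 457 UMIs (-1.38 to -1.09). In Lrat-positive VitA+ cells 1 member was past 2-fold lower (Gdf10, -1.58) and 0 higher, against 2.09% and 1.07% of genes, and under 5 portal fibroblast list UMIs again Gdf10 (-1.65), against 2.13% and 0.911%. In the Lrat-negative Col1a1-positive cells of the VitA- gate Gdf2 had a log2 ratio of 2.22, from 130 and 13 UMIs, with Acvrl1 at 0.36 and Gdf10 at 0.30.

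The library labelled VitA-Col1a1- was the only one with C1qa-positive cells and the one used to place the members in cell classes. With at least 2 UMIs of their own marker and none of the other 2, there were 2716 Lrat-positive, 1434 Pecam1-positive and 712 C1qa-positive cells. The stellate list summed to 9059, 396 and 137 CPM in the 3 classes, the endothelial list of 8 genes to 117, 7826 and 251 CPM and the macrophage list of 8 genes to 87.1, 123 and 22605 CPM, each of these lists being highest in its own class. The smooth muscle list summed to 4822, 109 and 53.8 CPM and a hepatocyte list of 5 genes to 1014, 718 and 4212 CPM, and the part of these in the class differences, that of Id2 among them, was not tested. Of the 10 members 6 were highest in Lrat-positive cells (Gdf2, Bmp10, Bmp5, Gdf10, Bambi and Id3), 2 in Pecam1-positive cells (Bmp2 and Id1) and 2 in C1qa-positive cells (Acvrl1 and Id2).

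Gdf2 was at 197 CPM in Lrat-positive, 4.26 CPM in Pecam1-positive and 2.32 CPM in C1qa-positive cells, Bmp10 at 54.4, 0.936 and 0.404 CPM, and Bmp5 at 257, 5.53 and 2.42 CPM. Gdf10 was at 54.3, 0.851 and 1.51 CPM. These 4 ligand genes were thus between 35.8-fold and 135-fold higher in Lrat-positive cells than in either other class. Bmp2 was a ligand of the endothelial class instead, at 1359 CPM in Pecam1-positive cells against 130.4 CPM in Lrat-positive and 7.67 CPM in C1qa-positive cells, 10.4-fold (10.1 to 10.8) and 177-fold. In Pecam1-positive cells of the other libraries Bmp2 was at 2252 CPM (VitA+Col1a1+ DEN+WAD, 138 cells), 2042 CPM (VitA-Col1a1+ DEN+WAD, 361 cells) and 3084 CPM (VitA-Col1a1+ chow, 32 cells), above the 1359 CPM of the library labelled VitA-Col1a1- in each.

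Acvrl1 was at 105 CPM in C1qa-positive cells, 43.6 CPM in Pecam1-positive and 22.5 CPM in Lrat-positive cells. It was 2.41-fold higher in the macrophage class than in the endothelial one, and in the endothelial class 1.93-fold higher than in Lrat-positive cells. In Pecam1-positive cells of the Col1a1+ libraries Acvrl1 was between 33.3 and 58.1 CPM, a narrower range than the 0 to 67.6 CPM of Lrat-positive cells over the 5 libraries. C1qa-positive cells with a UMI of the Kupffer cell gene Clec4f (441 cells) had 113 CPM (105 to 122) of Acvrl1, and those without one (271 cells) 90.7 CPM (81.2 to 101), a division made after the values were seen. Eng, which encodes the ALK1 co-receptor endoglin, was at 1112 CPM in the Pecam1-positive cells of this library.

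Bambi was at 123, 23.2 and 13.8 CPM in the Lrat-positive, Pecam1-positive and C1qa-positive classes, and Id3 at 2879, 930.2 and 988 CPM. Id1 was nearly even at 255, 344 and 232 CPM, with a ratio of 1.35 between the endothelial and the stellate class, and Id2 was at 244, 145 and 1092 CPM, 4.47-fold higher in C1qa-positive than in Lrat-positive cells. The 3 Id genes thus had their highest level in 3 different classes. Pecam1-positive cells without a UMI of the sinusoidal gene Stab2 (153 cells) had more Id1 than those with one (1281 cells), at 493 and 328 CPM, and less Bmp2, at 465 and 1455 CPM, and this division too was made after the values were seen.

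Of the members, 1 was past 2-fold higher (Bmp2) and 6 were past 2-fold lower in Pecam1-positive than in Lrat-positive cells, where 16.1% and 14.4% of genes tested were. In C1qa-positive over Lrat-positive cells 2 were higher (Acvrl1 and Id2) and 7 lower, against 15.1% and 26.9%. In C1qa-positive over Pecam1-positive cells 6 members reached the minimum of 5 CPM, of which 2 were higher (Acvrl1 and Id2) and 1 lower (Bmp2), against 14.3% and 30.6%, while Gdf2, Bmp10, Bmp5 and Gdf10 were under it. Gdf2, Bmp10 and Gdf10 were under 5 CPM in both other classes and reached the minimum only through the Lrat-positive class. The members were also chosen with earlier results of these data known, so that none of these counts is read against the share of all genes.

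**Figure D3:**
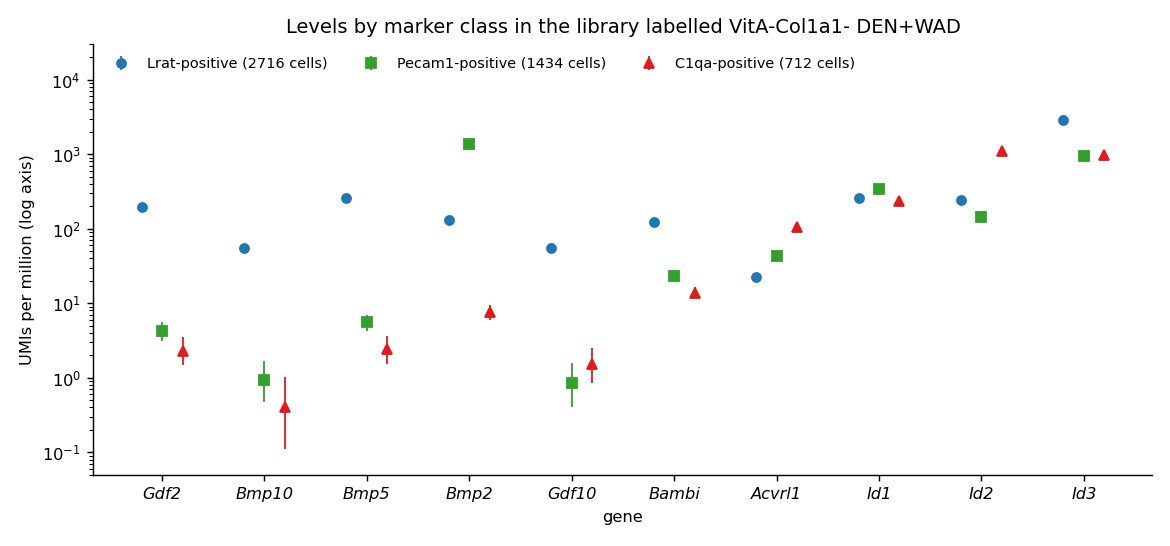
Level of each member in Lrat-positive, Pecam1-positive and C1qa-positive cells of the library labelled VitA-Col1a1-, in CPM on a log axis, with exact Poisson 95% intervals of counting error. Gdf2, Bmp10, Bmp5 and Gdf10 stand highest in Lrat-positive cells, Bmp2 is at 1359 CPM in Pecam1-positive cells, and Acvrl1 and Id2 are highest in C1qa-positive cells at 105 and 1092 CPM.

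Shares of Lrat-positive cells with a UMI were compared after each cell was thinned to 2000 UMIs, since depth differed between libraries. Gdf2 was found in 78.4% of VitA+ and 8.82% of VitA- cells of chow mice, 71.6% and 54.4% of those of DEN+WAD mice, and 30.8% of those labelled VitA-Col1a1- (99.1%, 25.9%, 99.0%, 85.3% and 61.9% at full depth). The share in Pecam1-positive and C1qa-positive cells of the last library, which gives the background of free RNA, was 0.780% and 0.546% (median depths of 8060 and 16887 UMIs, against 11848 in its Lrat-positive cells). Bmp10 was found in 26.7%, 1.51%, 20.7%, 11.1% and 10.0% in the same order (91.0%, 6.78%, 71.8%, 47.3% and 29.6% at full depth) against a background of 0.283% in Pecam1-positive cells. In Pecam1-positive cells of the other libraries the Gdf2 share was 3.62% (1.19% to 8.25%) in VitA+ DEN+WAD, 1.39% in VitA- DEN+WAD and 0 of 32 cells in VitA- chow, for which the interval reaches 10.9%. The thinned VitA- chow share of Gdf2, 8.82%, was therefore not set apart from that of the 32 Pecam1-positive cells of its own library. Summed over all UMIs, Gdf2 was higher in the Lrat-positive than in the Lrat-negative Col1a1-positive cells of that library, as given above. The Bmp10 share of the VitA- chow cells was 6 of 397 cells, with an interval of 0.557% to 3.26%. Gdf10 was found in 31%, 48.1%, 9.03%, 25.3% and 10.0% (91.0%, 79.4%, 40.3%, 70.8% and 26.9% at full depth). At full depth the order of the chow gates for Gdf10 was opposite to that of its CPM, and no order is read from those unthinned shares.

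Acvrl1 was found in 0 of 232 thinned VitA+ cells of chow mice, for which the exact Clopper-Pearson interval reaches 1.58%, and in 14.9% (11.5% to 18.7%) of the VitA- cells. After DEN+WAD the shares were 0.111% and 2.86%, with 4.14% for the library labelled VitA-Col1a1- (0.632%, 17.0% and 20.3% at full depth, and 66.8% in the VitA- chow cells). Pecam1-positive and C1qa-positive cells of that library, which are known to use the gene, had shares of 8.79% and 18.2%. The interval of the macrophage class, 15.1% to 21.7%, overlapped that of the VitA- chow cells.

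Whether Gdf2 and Bmp10 were found in the same cells was read from counts in single cells. In thinned Lrat-positive cells with a Gdf2 UMI, Bmp10 was 1.20-fold (1.09 to 1.32) the level of cells without one in the VitA+ DEN+WAD library, 2.30-fold (1.68 to 3.18) in the VitA- DEN+WAD library, and 2.81-fold (2.25 to 3.51) in the library labelled VitA-Col1a1-. In the VitA+ chow library, with 50 cells lacking a Gdf2 UMI, the ratio was 1.02 (0.588 to 1.86), and in the VitA- chow library, from 4 and 2 UMIs, 20.7 (2.96 to 229). Acvrl1 was at 0.226-fold in cells with Gdf2 in the VitA- DEN+WAD library (0.1 to 0.464) and in the library labelled VitA-Col1a1- (0.110 to 0.421). In the VitA+ DEN+WAD and VitA- chow libraries, with 5 against 6 and 2 against 60 UMIs, the ratios of 0.330 (0.0798 to 1.30) and 0.345 (0.0408 to 1.30) did not exclude equal levels, and in the VitA+ chow library no Acvrl1 UMI was found. Cells are not replicates, and these intervals treat UMIs as independent.

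The members also varied with Col1a1 inside the Lrat-positive class. Cells were put in 3 ranges, under 1, 1 to under 10, and 10 or more Col1a1 UMIs per 10000 UMIs, which are ranges of a continuous level and not cell types. From the lowest to the highest range Gdf2 was at 724, 625 and 368 CPM in the VitA+ DEN+WAD library, 666, 453 and 225 CPM in the VitA- DEN+WAD library and 372, 258 and 137 CPM in the library labelled VitA-Col1a1-. Bmp10 was at 134, 106 and 47.1 CPM, at 107, 57.9 and 19.0 CPM, and at 89.7, 82.3 and 32.4 CPM. Both ligand genes were thus lower at each higher range in all 3 libraries, with log2 ratios of the highest over the lowest range of -0.98, -1.56 and -1.44 for Gdf2 and -1.51, -2.49 and -1.47 for Bmp10. Bmp5 was at 526, 485 and 336 CPM in the VitA+ library and also lower at each step in the other 2.

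Acvrl1 was higher at each step in all 3 libraries, at 0.140, 0.569 and 4.36 CPM, at 1.34, 15.9 and 33.9 CPM, and at 7.27, 17.5 and 27.4 CPM. Gdf10 was higher in the highest than in the lowest range in the VitA+ and VitA- DEN+WAD libraries (log2 0.86 and 0.69), at 45.3 against 82.2 CPM and 117 against 189 CPM, and lower in the library labelled VitA-Col1a1- (-0.94), at 84.9 against 44.3 CPM. Id1 was likewise not of 1 direction, with log2 ratios of -1.39, -0.48 and 0.27, while Id3 was lower in the highest range in all 3, at 5391 against 3660 CPM, 5755 against 3291 CPM and 3640 against 2637 CPM. Acta2, the smooth muscle actin gene of activated stellate cells, was at 17.3, 134 and 739 CPM over the ranges of the VitA+ DEN+WAD library, and Lrat at 1583, 1521 and 1030 CPM. Hspa1a was at 4856, 3686 and 1734 CPM there, and the median UMIs per cell were 12798, 14210 and 20296. Lrat was at 1420, 1003 and 493 CPM in the VitA- DEN+WAD library and 1542, 1164 and 751 CPM in the one labelled VitA-Col1a1-. Its log2 ratios of the highest over the lowest range were -0.62, -1.53 and -1.04 in the 3 libraries. Median UMIs per cell were 14327, 17296 and 21786 in the VitA- DEN+WAD library and 6237, 10774 and 13520 in the one labelled VitA-Col1a1-. The part of Lrat, Hspa1a or depth in the member values was not tested. Between 193 and 830 cells of these libraries lay near a range limit.

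**Figure D4:**
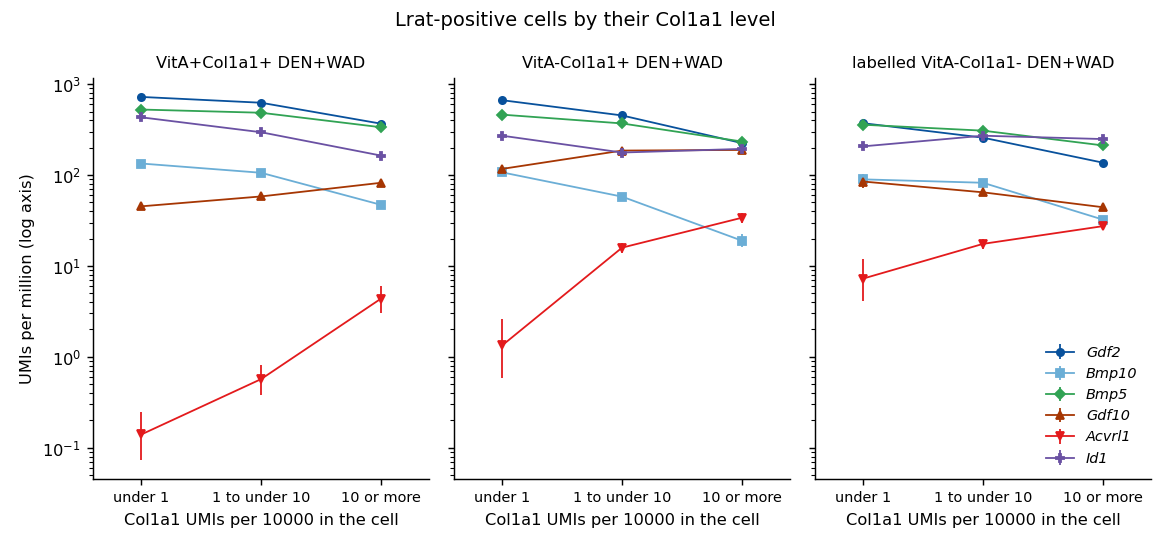
Level of Gdf2, Bmp10, Bmp5, Gdf10, Acvrl1 and Id1 in Lrat-positive cells by the Col1a1 level of the cell, in CPM on a log axis, in the 3 libraries of DEN+WAD mice; bars are exact Poisson 95% intervals. Gdf2, Bmp10 and Bmp5 are lower and Acvrl1 higher at each step in all 3 panels, and Gdf10 goes from 45.3 to 82.2 CPM in the VitA+ library and from 84.9 to 44.3 CPM in the library labelled VitA-Col1a1-.

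Against the VitA-Col1a1+ DEN+WAD library, the library labelled VitA-Col1a1- differed over all cells by log2 ratios of -2.73 for Gdf10, -1.73 for Bambi, -1.58 for Gdf2 and -0.95 for Id3, with 0.63 for Id2 and 0.36 for Acvrl1. Among Lrat-positive cells the ratios were -1.67 for Gdf10, -1.21 for Bambi, -1.15 for Gdf2, 0.03 for Id2 and -0.09 for Bmp10 (-0.19 to 0.01). Gdf10, Bambi and Gdf2 thus remained past 2-fold lower in cells of the same marker class. The gate and the Cell Ranger version, which differed between these libraries, cannot be told apart here.

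Genes with a pattern most like each member were ranked by Pearson r of log2(CPM + 1) over 13 profiles, the library by class combinations of at least 20 cells, among 10473 genes. The profiles share libraries, so that r is a description. Gdf2 was closest to Reln (r = 0.994), the stellate gene for reelin, then Bco1 and Ank3. Bmp10 was closest to Lrrc4c (0.986), Dach1 and Bco1. Bmp5 was closest to Nr1h4 (0.992), which encodes the bile acid receptor FXR, then Fam171b and Pth1r. Bmp2 was closest to Cnksr3 (0.995), Gdf10 to Inmt (0.984), Bambi to Tspyl4 (0.988), Acvrl1 to Pim1 (0.963), Id1 to Natd1 (0.954), Id2 to Slc25a5 (0.944) and Id3 to Wfdc1 (0.973). Among the members themselves r was 0.95 for Gdf2 with Bmp10 and for Bambi with Id3, 0.92 for Gdf2 with Bmp5, and -0.81 for Bmp10 with Acvrl1.

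Of 48 other genes of the pathway, 31 had a mean of at least 5 CPM over the chow gates, and 13 of these were past 2-fold higher and 1 lower in VitA- cells (10.5% and 5.37% of all genes tested), with a median log2 ratio of 0.72 against 0.07 over all genes tested. Among the 13 were Fst, Chrdl1, Fstl3, Nbl1 and Twsg1 among the antagonists, Bmp3 and Bmp6 among the ligands, Rgma among the co-receptors, and Id4, Hey2, Smad7 and Atoh8 among the targets. Secreted antagonists bind BMPs and keep them from receptors. Of 13 such genes listed, 7 had a mean of at least 5 CPM, and 6 of these 7 were past 2-fold higher. The ratios of these pathway genes, here and below, were taken over all cells. Over all cells the summed portal fibroblast and smooth muscle lists were also higher in the VitA- library of both diets. Their part in the pathway ratios was not tested. Chrdl1, which encodes chordin-like protein, was at 3.09 and 143 CPM in VitA+ and VitA- cells on chow. Fst, for follistatin, and Bmp3 had no UMI in VitA+ cells on chow and were at 28.3 and 29.5 CPM in VitA- cells, at least 58.1-fold and 60.5-fold higher. Acvr2a, a type II receptor gene, was at 124 and 34.7 CPM, 3.58-fold lower, and next lowest were Eng at 721 and 402 CPM and Smad5 at 85.9 and 56.1 CPM.

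After DEN+WAD 28 of the 48 genes were at 5 CPM or more, of which 8 were past 2-fold higher in VitA- cells and 0 lower (8.64% and 1.65% of all genes tested), with a median of 0.35 against 0.09 over all genes. Chrdl1 was at 1.55 and 42.1 CPM, Id4 at 9.84 and 96.5 CPM and Bmp6, the ligand that joins Bmp2 in the control of hepcidin, at 1.58 and 15.4 CPM. Also past 2-fold higher were Gata2, Fstl3, Nbl1, Rgma and Smad6. The lowest ratios were those of Acvr2a (93.7 and 49.0 CPM), Tmem100 (44.8 and 29.9 CPM) and Smad5 (68.8 and 56.7 CPM), none past 2-fold. Between the diets, 9 of 32 genes were past 2-fold lower in VitA- cells after DEN+WAD, among them 6 antagonist genes, where 4.94% of all genes were, and 1 was higher (Gata2), where 4.39% were. In VitA+ cells 1 of 23 was past 2-fold lower (Id4) and 0 higher, near the shares of 3.11% and 0.970% over all genes.

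**Figure D5:**
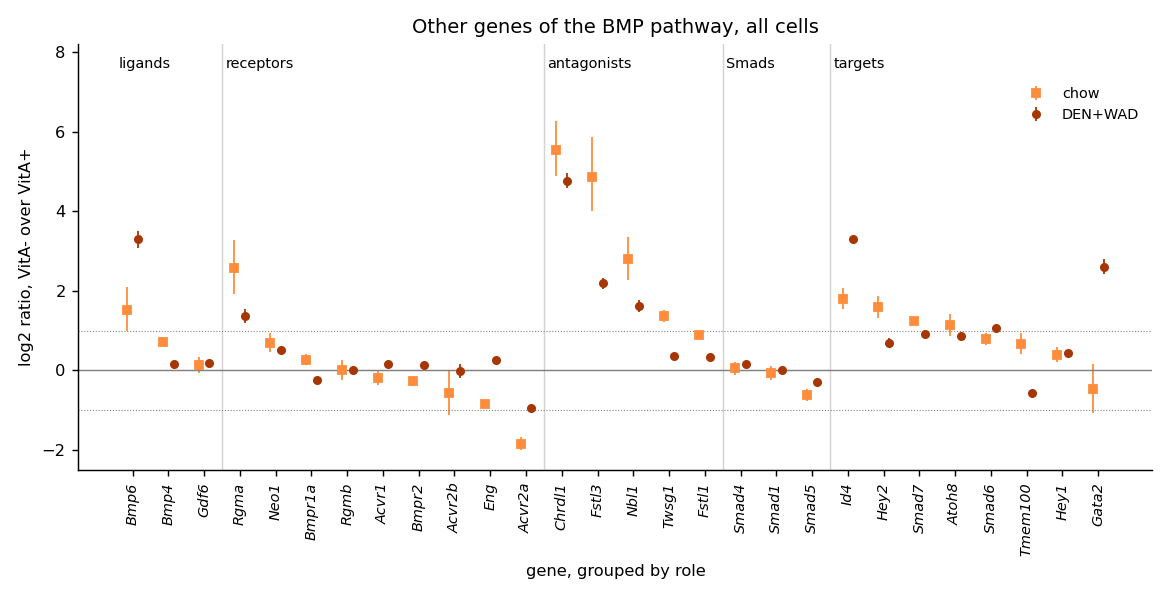
Log2 ratio of the level in VitA- over VitA+ cells for 28 other genes of the BMP pathway, grouped by role, on chow (squares) and after DEN+WAD (circles), with 95% intervals of counting error and dotted lines at 2-fold. The ratios are over all cells. The antagonist Chrdl1 stands highest in both diets, at 5.53 and 4.77, and Acvr2a lowest, at -1.84 and -0.94.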

How the data were processed

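Single-cell libraries of sorted mouse liver cells were made by the authors with 10x Genomics 3′ chemistry at a target of 10000 cells each. The labels give the kit as v3.1 in the description and as v2 in the protocol, so its version is uncertain. The authors mapped reads to mm10 and counted UMIs with Cell Ranger, version 3.1.0 per the labels and the file headers of the 4 Col1a1+ libraries, and 6.1.2 per the file header of the library labelled VitA-Col1a1-. The deposited values were raw UMI counts for 31053 genes per cell barcode, whole numbers without normalization, and all deposited barcodes were kept as cells. The effect of the other software version on levels in the last library was not tested.

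UMI counts were summed over the cells of a library or class and scaled to 1000000. Levels carry exact Poisson 95% intervals, ratios conditional binomial ones, and shares of cells Clopper-Pearson ones. UMIs are not replicates, and with 1 library a group no p-value was made. A count of 0 was set to a floor of 3 UMIs. Genes with a mean of at least 5 CPM were set against a limit of 2-fold. Classes needed 2 UMIs of Lrat, Pecam1 or C1qa and 0 of the other 2, or, for Lrat-negative Col1a1-positive cells, 0 of all 3 and 2 of Col1a1. No doublet caller was run. Doublets were limited by the rule that a class lacks the other markers and by an alternative that dropped cells over 2 times the median UMIs of their library. Cells were thinned to 2000 UMIs with random seed 7, which left out 172, 106, 4, 21 and 1439 cells of the VitA+Col1a1+ DEN+WAD, VitA-Col1a1+ DEN+WAD, VitA+Col1a1+ chow, VitA-Col1a1+ chow and VitA-Col1a1- libraries.

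All 10 members were named in all 5 libraries. Of the list of other pathway genes (48 found of 49 symbols), the text names the 3 highest and 3 lowest gate ratios in each diet and the genes past 2-fold between the gates, and for each member the genes most like it. The values of 1 gene that this rule would name are not reported here. The members and the gene lists were chosen with earlier results of these data known. The portal fibroblast division, the Clec4f and Stab2 divisions, and the alternatives without Pecam1 or C1qa UMIs and with at least 10 Lrat UMIs were added after the data had been seen. Promoter windows and their motif shares came from RefSeq (GRCm38.p6) and gene positions from GENCODE M21, 1-based. Computation used Python 3.11.15, numpy 2.4.6, scipy 1.17.1, pandas 2.3.3 and matplotlib 3.10.9, with TMM factors from edgeR 4.0.16 in R 4.3.3. The ratio code was tested on simulated data.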

Additional observations from a re-analysis of the deposited data

Results flagged for a closer look

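Several members had log2 ratios of opposite sign in the pair of libraries of one gate or diet and in the other pair, each with 1 library a group, and the difference between the pairs was not tested against replicates. Bmp2 differed between VitA- and VitA+ cells by -0.69 on chow and 0.69 after DEN+WAD, and Id2 by -0.24 and 0.25. Between DEN+WAD and chow, the ratio in VitA+ and in VitA- cells was -0.11 and 2.80 for Gdf2, -0.52 and 2.99 for Bmp10, and -0.39 and 0.96 for Bmp5. It was -0.42 and 0.96 for Bmp2, -0.42 and 0.30 for Id1, and -0.14 and 0.35 for Id2. With TMM scaling the diet ratios of Gdf2 and Id2 in VitA+ cells were positive, so that their signs were no longer opposite. Among Lrat-positive cells Bmp2 was lower in the VitA- gate of both diets, at -1.53 and -0.56. These pairs share libraries and are not independent of one another.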

How the results depend on the processing

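No paired analysis was possible because each group was 1 library, and no replicate could be left out for the same reason. Of the log2 ratios past 2-fold over all cells, 15 of 15 kept their direction under TMM scaling, a mean over cells, Lrat-positive cells only, cells with at least 10 Lrat UMIs, cells without Pecam1 or C1qa UMIs, and limits on low depth, high depth and mitochondrial share. Within Lrat-positive cells under 5 portal fibroblast list UMIs 12 of 15 did, and the exceptions were Gdf10 between the gates on chow (-0.46), Id1 between the gates on chow (0.15) and Gdf10 between the diets in VitA- cells (0.14). The cause was not tested. In that setting 1 member was past 2-fold higher (Acvrl1) and 2 lower (Gdf2 and Bmp10) between the gates on chow, 0 were lower between the gates after DEN+WAD, and 0 were higher between the diets in VitA- cells. Between the gates after DEN+WAD, 1 was lower in Lrat-positive cells (Bmp10), 1 without Pecam1 or C1qa UMIs (Bmp10) and 0 with at least 10 Lrat UMIs. Between the diets in VitA- cells, TMM scaling gave 4 higher (Gdf2, Bmp10, Bmp5 and Bmp2) and 1 lower (Gdf10), and cells without Pecam1 or C1qa UMIs gave 1 lower (Acvrl1). With a 1.5-fold limit 7 were lower between the gates on chow, 4 lower after DEN+WAD and 4 higher between the diets in VitA- cells. The class of highest level was given to 6, 2 and 2 members under all 5 class alternatives. Shares of cells moved with depth in 49 of 50 cases, at full depth and at 1000 UMIs alike. With a minimum of 1 CPM, 14.1% and 6.53% of genes were past 2-fold higher and lower between the gates on chow and 12.7% and 1.79% after DEN+WAD. Depth limited Acvrl1 in VitA+ cells on chow, with 9 UMIs in all, and every value of the 45 VitA- cells under 5 portal list UMIs.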
